A study of Caenorhabditis elegans with 4 samples.

Results

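The nuclear pore and nuclear transport genes of Caenorhabditis elegans were followed in ribosome profiling of whole young adult worms. Members were the genes of the footprint count table whose symbol is npp, imb, ima or ran followed by a number. The rule found 37 of 20179 genes, made up of 26 nucleoporin genes (npp), 6 importin genes (3 imb and 3 ima) and 5 genes of the Ran system (ran). The rule used names alone and no measured value, but it was set with earlier results of these data known. The tested strain was a strain with the alleles rrr12 of cey-1 and ok858 of cey-4, called the mutant here, which lacks intact copies of 2 Y-box RNA-binding protein genes in all its cells, with 2 libraries. It was compared with the wild-type strain N2, also with 2 libraries, to see how footprints on these genes differ when both Y-box genes are mutated. Hatched larvae were fed OP50 bacteria until young adulthood and frozen whole, and gel-selected fragments protected by single ribosomes were sequenced. The labels do not say whether the libraries of a strain came from separate cultures, so p-values measure the spread between these libraries, which may be technical.

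The nuclear pore is the channel through the nuclear envelope by which proteins enter the nucleus and messenger RNA leaves it. Its scaffold is built from a Y-shaped complex and an inner ring, is anchored by transmembrane nucleoporins, and carries a central channel lined with phenylalanine-glycine repeats, filaments on the cytoplasmic face and a basket on the nuclear face. Importin alpha binds cargo with a nuclear localization signal and is carried through the pore by importin beta, while the small GTPase Ran, kept in its GTP form inside the nucleus, releases the cargo there. In the worm germ line, P granules sit on the cytoplasmic side of nuclear pores, and the nuclear envelope and its pores are taken apart and rebuilt at each embryonic division.

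The libraries held 27180732 and 22303560 counts in the mutant and 32913332 and 27867396 counts in N2. Levels are given as counts relative to the library total, scaled as CPM, which for a footprint library joins the amount of a message with the number of ribosomes on it. No RNA-seq library was analysed here to separate them. In whole worms, fewer cells of a type and less footprint RNA per cell cannot be told apart. Coding lengths were not used here, so levels are compared between strains for a gene and not between genes. As a check of the labels, cey-4 had 1.88 and 1.52 CPM in the mutant, against 263 and 266 CPM in N2. The other mutated gene, cey-1, had 3.86 and 4.12 CPM in the mutant and 69.9 and 73.5 CPM in N2.

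Most nuclear pore and transport genes fell slightly in the mutant and none rose. Of the 37 members, 36 passed the low-count filter. Of these, 24 fell, 0 rose and 12 missed the threshold (edgeR quasi-likelihood test, Benjamini-Hochberg adjusted p under 0.05 over 13086 genes). At an unadjusted p under 0.05, 25 were lower and 0 higher, and the share of all genes at that threshold is not given here. DESeq2 called 18 members lower and 0 higher, and of all 13086 genes it called 1141 lower and 1004 higher. Across all genes tested, 16.6% fell and 17.4% rose in the edgeR fit. The members are well counted. Among all genes with a mean of at least 500 counts, 32.2% fell and 19.2% rose, against 24 of 35 members above that count that fell. The median log2 fold change of mutant over N2 was -0.15 for the members, which therefore fell by 9.94% at the median, beside 0.01 for all genes tested and -0.05 for the 4421 genes with a mean of at least 500 counts. A value after ± is the standard error (SE) where it follows a log2 fold change and the standard deviation (SD) where it follows CPM. Both mutant libraries lay below both N2 libraries for 29 of the 36 members and above them for 2, where the background over all genes tested was 31.1% below and 33.8% above. That background is not given for genes with a mean of at least 500 counts, so it is not matched to the depth of the members. Together the 37 members held 0.470% and 0.458% of all counts in the mutant and 0.525% and 0.519% in N2.

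The size of the change was small, and its call depended on the test. Against a fold of at least 1.2, a test added after seeing the data, 1 member was called (edgeR), the importin alpha gene ima-2, where 3.44% of all genes were called lower. The same single gene was called by limma on the deposited log2 values. Without mutant replicate 2, the member median was -0.14, and fewer members and fewer of all genes were called lower. With DESeq2, npp-2, npp-3, npp-8, npp-13, npp-23 and ima-3 were not called.

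**Figure D1:**
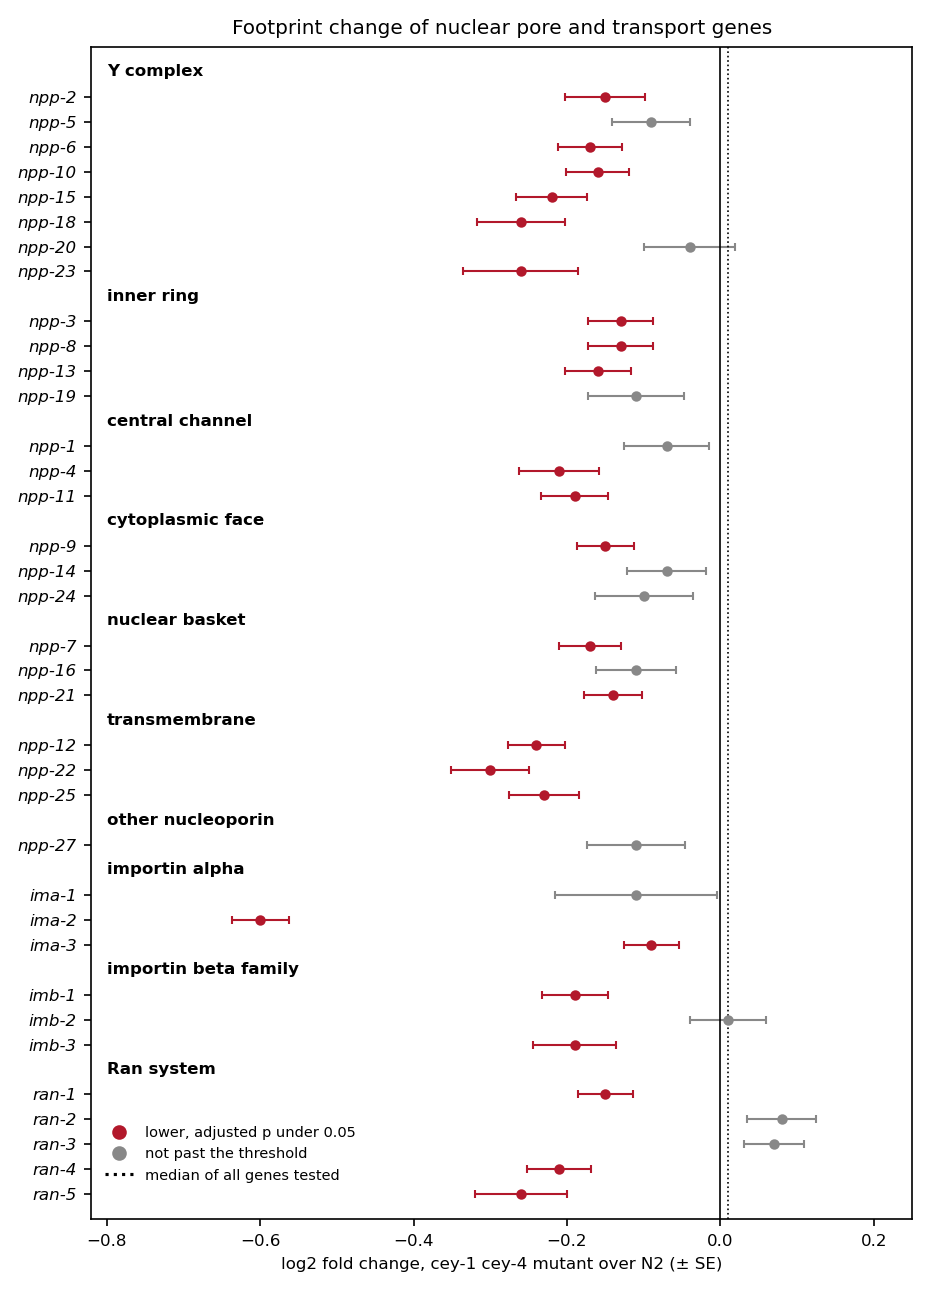
Log2 fold change of footprint counts, mutant over N2, with its standard error for the 36 members that passed the low-count filter, grouped by role. The points to look for are ima-2 at -0.60 and ran-2 and ran-3 to the right of 0, while most others lie near the member median of -0.15. The transmembrane nucleoporins lie between -0.30 and -0.23, a range that also holds npp-18, npp-23 and ran-5, each at -0.26.

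In the fit as designed, the tested nucleoporins shared the sign of their change. All 25 that were tested had a negative log2 fold change, from -0.30 to -0.04, and 17 fell, 0 rose and 8 missed the threshold. Their median was -0.15. Each of the 25 averaged at least 500 counts, and of all genes at that depth 32.2% fell and 19.2% rose. That share of lower genes is also the background for the counts by role below. With few genes in a role, those counts do not set 1 role apart from another. When each mutant library was set against each N2 library, the median over these 25 genes was -0.18, -0.16, -0.15 and -0.15, whereas mutant replicate 1 over mutant replicate 2 gave 0.01. The sign of 2 of them turned under an alternative: npp-20 reached 0.01 with upper-quartile scaling, 0.01 without N2 replicate 2 and 0.05 without mutant replicate 1, and npp-19 reached 0.00 without N2 replicate 1.

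All 3 transmembrane nucleoporins fell, beside 32.2% of all genes with a mean of at least 500 counts. npp-22 (WBGene00007118), the counterpart of vertebrate NDC1, had 49.5 and 49.4 CPM in the mutant, against 60.2 and 61.3 CPM in N2. The mutant libraries lay close together and well below both N2 libraries, and the log2 fold change was -0.30 ± 0.051 (edgeR adjusted p = 1.80e-06). npp-12 (WBGene00003798), the counterpart of gp210, a pore membrane protein that worms need for nuclear envelope breakdown, had 253 and 244 CPM in the mutant and 297 and 289 CPM in N2. Its groups did not overlap either, and it fell by 0.24 ± 0.037 on the log2 scale (edgeR adjusted p = 1.33e-07). npp-25, the counterpart of TMEM33, averaged 78.3 ± 3.20 CPM in the mutant and 91.7 ± 2.80 CPM in N2 (SD, n = 2 each) and had a log2 fold change of -0.23 (edgeR adjusted p = 3.88e-05). The 3 genes kept their call whichever library was left out.

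Of the 8 Y complex genes, 6 fell, 0 rose and 2 missed the threshold, with a median of -0.17. These proteins form the outer scaffold and, in worm embryos, also sit at kinetochores during mitosis. npp-15, the counterpart of Nup133, had 74.5 and 70.5 CPM in the mutant, against 84.6 and 84.7 CPM in N2. The N2 libraries were almost equal and both above the mutant ones (log2 fold change -0.22 ± 0.046, edgeR adjusted p = 6.95e-05). npp-10, whose product is cut into the counterparts of Nup98 and Nup96, had 130.3 and 125 CPM in the mutant and 147 and 138 CPM in N2. Its log2 fold change was -0.16 ± 0.041 (edgeR adjusted p = 9.80e-04), and the call was lost without mutant replicate 2 (edgeR adjusted p = 0.0625). npp-23, the counterpart of Nup43, had 17.4 and 18.2 CPM in the mutant, against 22.7 and 19.7 CPM in N2. The N2 libraries differed from each other by more than the mutant ones did, and the log2 fold change of -0.26 ± 0.075 (edgeR adjusted p = 0.00432) became -0.16 without N2 replicate 1 (edgeR adjusted p = 0.215). It was also lost without mutant replicate 1 (edgeR adjusted p = 0.0751) and with DESeq2 (adjusted p = 0.128). Of the other Y complex genes, npp-18 (counterpart of Seh1), npp-6 (Nup160) and npp-2 (Nup85) fell, at log2 fold changes of -0.26, -0.17 and -0.15. The call of npp-2 was lost without N2 replicate 2 (edgeR adjusted p = 0.206) and without mutant replicate 2 (0.184), and that of npp-6 without mutant replicate 1 (0.0503). npp-5 (Nup107) had a log2 fold change of -0.09 and npp-20 (Sec13, which also coats secretory vesicles) one of -0.04, and neither passed (edgeR adjusted p = 0.165 and 0.665).

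Of the 4 inner ring genes, 3 fell, 0 rose and 1 missed the threshold, with a median of -0.13. npp-13, the counterpart of Nup93, had 92.7 and 95.8 CPM in the mutant, against 105.7 and 104.3 CPM in N2 (log2 fold change -0.16 ± 0.043, edgeR adjusted p = 0.00254). Its groups did not overlap, but it was not called without mutant replicate 1 (edgeR adjusted p = 0.106). npp-3, the counterpart of Nup205, had 119.6 and 113 CPM in the mutant and 127 CPM in each N2 library (log2 fold change -0.13 ± 0.042, edgeR adjusted p = 0.0112), with an edgeR adjusted p of 0.254 without mutant replicate 2. npp-8, the counterpart of Nup155, fell by 0.13 as well but was called in only 1 of the 4 fits that leave out a library, with an edgeR adjusted p of 0.106 without N2 replicate 2, 0.119 without mutant replicate 1 and 0.0865 without mutant replicate 2. npp-19, the counterpart of Nup35, had a log2 fold change of -0.11 that missed the threshold (edgeR adjusted p = 0.195). It passed at -0.20 without N2 replicate 2 (edgeR adjusted p = 0.0208).

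Of the 3 central channel genes, 2 fell and 1 missed the threshold. npp-11, the counterpart of Nup62, had 89.3 and 90.8 CPM in the mutant and 101.0 and 103.7 CPM in N2. Both mutant libraries were below both N2 libraries (log2 fold change -0.19 ± 0.044, edgeR adjusted p = 4.34e-04). npp-4, the counterpart of Nup58, had 48.8 and 47.7 CPM in the mutant, against 55.0 and 56.2 CPM in N2 (log2 fold change -0.21 ± 0.052, edgeR adjusted p = 0.00108). npp-1, the counterpart of Nup54, the third protein of this channel complex, averaged 41.2 ± 1.12 CPM in the mutant and 43.2 ± 0.443 CPM in N2 (SD, n = 2 each), and its log2 fold change of -0.07 missed the threshold (edgeR adjusted p = 0.347).

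On the cytoplasmic face, npp-9, the counterpart of the Ran-binding filament protein Nup358, had 227 and 225 CPM in the mutant, against 260.2 and 241 CPM in N2. The N2 libraries were further apart than the mutant ones, with no overlap (log2 fold change -0.15 ± 0.037, edgeR adjusted p = 8.22e-04). The other 2 members of this face, npp-14 (counterpart of Nup214) and npp-24 (Nup88), had log2 fold changes of -0.07 and -0.10 and missed the threshold (edgeR adjusted p = 0.330 and 0.235). npp-24 passed without N2 replicate 1, at -0.20 (edgeR adjusted p = 0.0340). The mRNA export factor gene rae-1, known also as npp-17, stands outside the rule by its symbol and was chosen after its values were seen. It had 47.2 and 43.5 CPM in the mutant and 54.8 and 53.8 CPM in N2, and it fell by 0.26 ± 0.053 (edgeR adjusted p = 5.97e-05).

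In the nuclear basket, 2 of 3 genes fell and 1 missed the threshold. npp-7, the counterpart of Nup153, had 3805 and 2966 counts in the mutant, against 5072 and 4240 counts in N2, or a mean of 136.5 ± 4.95 CPM in the mutant and 153.1 ± 1.38 CPM in N2 (log2 fold change -0.17 ± 0.040, edgeR adjusted p = 5.21e-04). npp-21, the counterpart of TPR, which forms the basket fibres, had 166 and 170.0 CPM in the mutant and 189 and 181 CPM in N2 (log2 fold change -0.14 ± 0.038, edgeR adjusted p = 0.00238). Neither gene overlapped between the strains, but npp-7 was not called without mutant replicate 2 (edgeR adjusted p = 0.0669), nor npp-21 without mutant replicate 1 (0.113). npp-16, the counterpart of Nup50, had a log2 fold change of -0.11 that missed the threshold (edgeR adjusted p = 0.101). Of the genes given no role here, npp-27 had 26.7 and 26.5 CPM in the mutant and 28.0 and 29.4 CPM in N2, with a log2 fold change of -0.11 that missed the threshold (edgeR adjusted p = 0.182). npp-26 had 1 and 2 counts in the mutant and 2 and 0 counts in N2, which is too few to test.

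**Figure D2:**
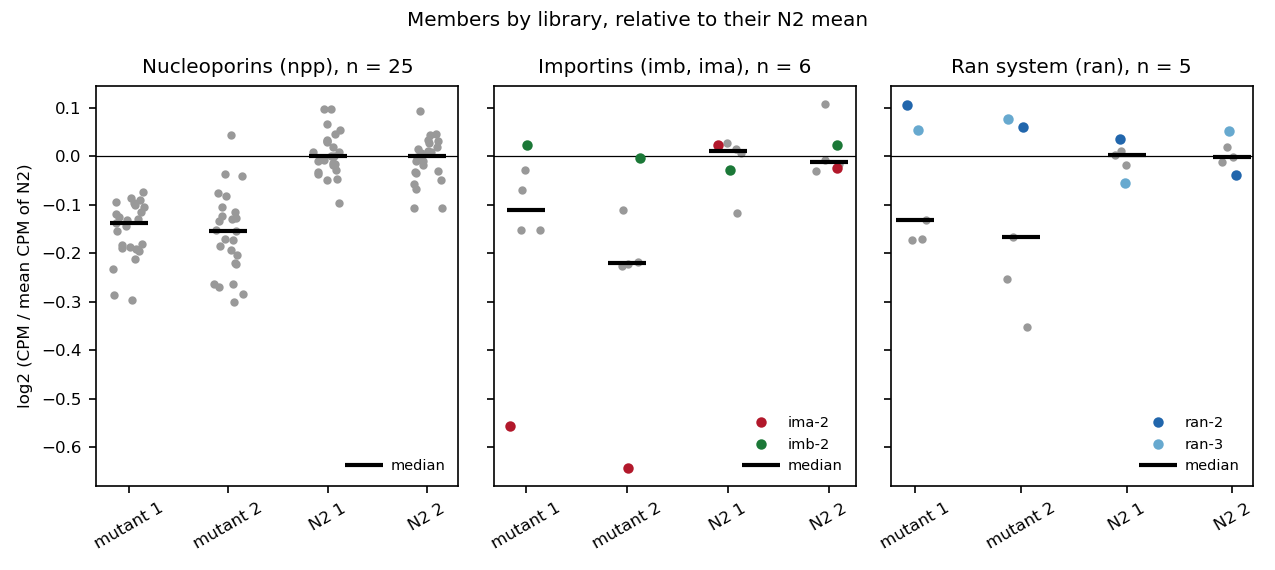
Footprint CPM of each member in each of the 4 libraries, as log2 of its ratio to the gene's N2 mean, for 25 nucleoporins, 6 importins and 5 Ran system genes; points are genes and black bars are medians. Nucleoporins sit below 0 in both mutant libraries with 1 exception, npp-20 in mutant replicate 2, whereas the importins and the Ran genes include ima-2 far below and ran-2 and ran-3 above the rest.

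The importins had the same median as the nucleoporins, -0.15, and ran from -0.60 to 0.01. The low end was ima-2 alone. The other importins lay between -0.19 and 0.01, beside -0.30 to -0.04 for the nucleoporins. Of the 6 genes, 4 fell, 0 rose and 2 missed the threshold. Of all genes averaging at least 500 counts, which include each importin but ima-1, 32.2% fell. The difference of the class medians, nucleoporins minus importins, was -0.003, within a range of -0.026 to 0.062 when 1 library was left out. With 2 libraries against 2, an exact permutation test cannot give a p below 0.33, so no test was made of this difference. The 6 importins held 0.178% and 0.171% of all counts in the mutant and 0.204% and 0.200% in N2, and the nucleoporins held 0.211% and 0.209% in the mutant and 0.238% and 0.234% in N2.

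The largest change of any member was in ima-2 (WBGene00002073), an importin alpha of the germ line that worm embryos need for spindle and nuclear envelope assembly. It had 4922 and 3805 counts in the mutant and 8908 and 7299 counts in N2, which is 181 and 171 CPM in the mutant and 271 and 262 CPM in N2. Both mutant libraries were far below both N2 libraries, and its level fell by 34.0% (log2 fold change -0.60 ± 0.037, edgeR adjusted p = 3.38e-23). It fell under each of the 12 other ways of scaling, filtering or testing, at log2 fold changes of -0.79 to -0.55, with the highest adjusted p, 0.0218, from limma on the deposited log2 values. Against a fold of 1.2 its edgeR adjusted p was 8.23e-13.

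Of the other importin alphas, ima-3 fell narrowly and ima-1 missed the threshold. ima-3, which worms need for progress through meiosis in the germ line, had 298 and 289 CPM in the mutant, against 314 and 311 CPM in N2 (log2 fold change -0.09 ± 0.036, edgeR adjusted p = 0.0417). The groups did not overlap, but the call was lost without N2 replicate 1 (edgeR adjusted p = 0.195), mutant replicate 1 (0.158) or mutant replicate 2 (0.360), and with DESeq2 (adjusted p = 0.168), limma-voom (0.0767) or upper-quartile scaling (edgeR, 0.352). ima-1 had 8.98 and 7.85 CPM in the mutant and 8.45 and 9.87 CPM in N2, with overlapping groups and a log2 fold change of -0.11 ± 0.106 (edgeR adjusted p = 0.456). Within a library, where scaling plays no part, the counts of ima-2 were 0.608 and 0.590 times those of ima-3 in the mutant and 0.862 and 0.842 times in N2. The difference of the log2 ratio, mutant minus N2, was -0.51, which restates the fold changes of the 2 genes. For ima-2 over ima-1 it was -0.48, and for imb-1 over ima-3 it was -0.10. Any ratio without overlap between the strains gives the smallest exact permutation p this design allows, 0.33 (2-sided, 4 libraries). That p therefore adds no support.

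**Figure D3:**
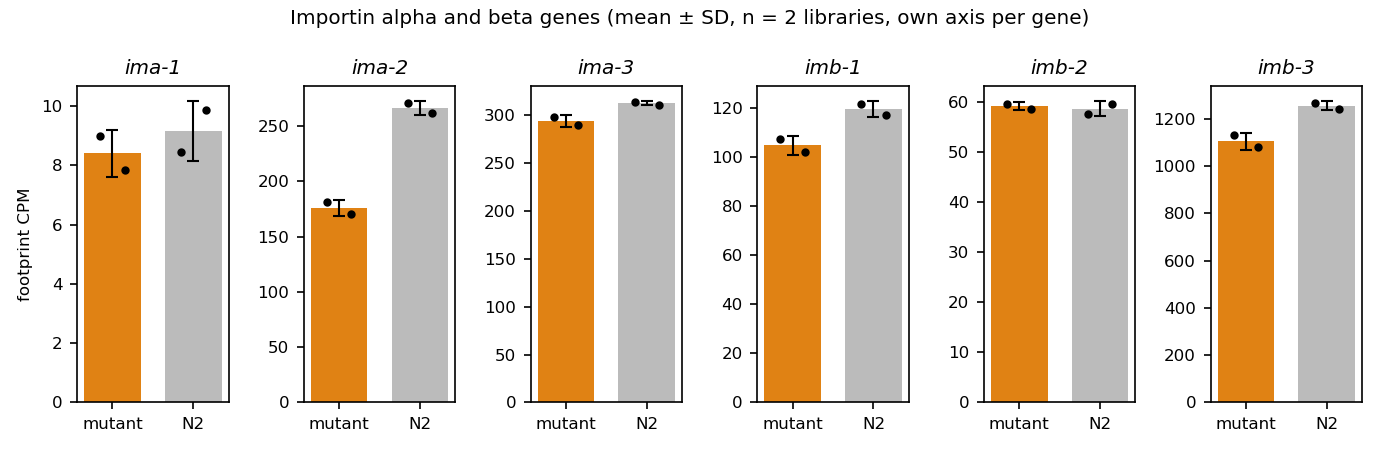
Footprint CPM of the 3 importin alpha and 3 importin beta family genes, mutant left of N2, as mean with SD of 2 libraries and each library as a point; every gene has its own axis starting at 0. ima-2 averaged 176 CPM in the mutant and 266 CPM in N2, while imb-2 averaged 59.2 CPM in the mutant and 58.7 CPM in N2.

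Of the importin beta family, imb-1 and imb-3 fell and imb-2 missed the threshold. imb-1, importin beta itself, had 2928 and 2281 counts in the mutant, against 4016 and 3270 counts in N2, or a mean of 105 ± 3.86 CPM in the mutant and 119.7 ± 3.31 CPM in N2 (log2 fold change -0.19 ± 0.043, edgeR adjusted p = 2.11e-04). Its groups did not overlap and it kept its call whichever library was left out. imb-3, a karyopherin of the same family, had 1129 and 1079.8 CPM in the mutant and 1268 and 1241 CPM in N2. It had a log2 fold change of -0.19 ± 0.054 (edgeR adjusted p = 0.00440), with an edgeR adjusted p of 0.0993 without mutant replicate 2. imb-2, the counterpart of transportin, which imports RNA-binding proteins, had 59.7 and 58.6 CPM in the mutant and 57.6 and 59.7 CPM in N2. Its groups overlapped, and the log2 fold change of 0.01 ± 0.050 (edgeR adjusted p = 0.898) became -0.02 without N2 replicate 1 and -0.18 when centred on somatic genes.

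Of the 5 Ran system genes, 3 fell, 0 rose and 2 missed the threshold, with a median of -0.15. All 5 averaged at least 500 counts, a depth at which 32.2% of all genes fell. The GTPase and its import factor were among the fallers, and the genes of the proteins that set its nucleotide state were the pair that missed it. ran-1, which encodes Ran, had 379 and 369 CPM in the mutant, against 409 and 420.2 CPM in N2 (log2 fold change -0.15 ± 0.036, edgeR adjusted p = 5.37e-04; 0.0593 without mutant replicate 2). ran-4, the counterpart of NTF2, which returns Ran to the nucleus, had 108 and 101 CPM in the mutant and 121 CPM in each N2 library. It fell by 0.21 ± 0.042 (edgeR adjusted p = 3.51e-05) and kept its call whichever library was left out. ran-5 had 34.0 and 30.0 CPM in the mutant, against 38.6 and 38.0 CPM in N2 (log2 fold change -0.26 ± 0.060, edgeR adjusted p = 3.84e-04; 0.0635 without mutant replicate 2). For these 3 genes both mutant libraries were below both N2 libraries.

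The Ran GTPase-activating protein and exchange factor genes had positive log2 fold changes. ran-2, the counterpart of RanGAP, had 91.5 and 88.6 CPM in the mutant and 87.1 and 82.8 CPM in N2, and its log2 fold change of 0.08 ± 0.045 missed the threshold (edgeR adjusted p = 0.165). ran-3, the counterpart of the exchange factor RCC1, had 186 and 189 CPM in the mutant and 173 and 186 CPM in N2, with a log2 fold change of 0.07 ± 0.039 that missed it as well (edgeR adjusted p = 0.201). Mutant replicate 1 and N2 replicate 2 were nearly equal for ran-3. Both genes were called higher with upper-quartile scaling (edgeR adjusted p = 0.0225 for ran-2 and 0.0201 for ran-3), ran-3 was called higher without N2 replicate 2 (0.0151), and both turned negative when centred on somatic genes. On that scale ran-3 was called lower, at -0.13 (edgeR adjusted p = 0.0246), and ran-2, at -0.11, missed the threshold (0.112). Within a library, ran-3 had 0.492 and 0.512 times the counts of ran-1 in the mutant and 0.422 and 0.442 times in N2. For ran-2 over ran-1 the ratios were 0.241 and 0.240 in the mutant and 0.213 and 0.197 in N2. The log2 ratios differed by 0.22 and 0.23, mutant minus N2, which restates the fold changes of these genes. Each had the smallest exact permutation p this design allows, 0.33 (2-sided), as any ratio without overlap would, so the p adds no support.

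**Figure D4:**
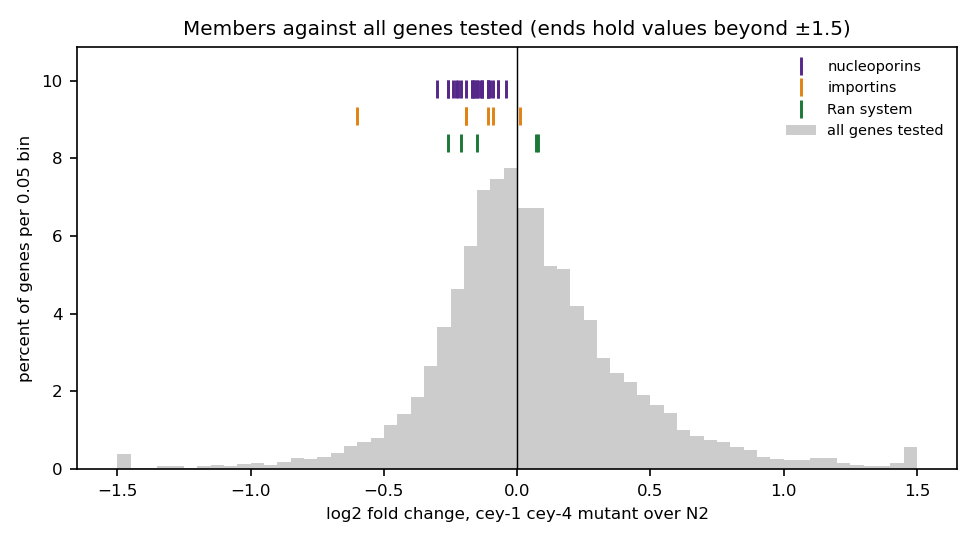
Percent of all 13086 genes tested in each 0.05-wide bin of log2 fold change, mutant over N2 (grey bars), with each tested member as a tick above them, by class. The members have quartiles of -0.21 and -0.11, beside quartiles of -0.16 and 0.23 for all genes. Of the tested members 35 have a mean of at least 500 counts, as do 4421 of all genes tested. Quartiles of the genes at that depth are not given, so the widths are not compared at like depth.

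Genes of the pathway outside the rule were taken from lists of exporters, mRNA export factors and nuclear envelope proteins. Of 34, all of which were tested, 12 fell, 3 rose and 19 missed the threshold, with a median log2 fold change of -0.11. The 12 that fell are 35.3% of the list, beside 16.6% of all genes and 32.2% of the genes averaging 500 counts or more. Above that level lay 25 of the 34, of which 11 fell and 1 rose. Among the 16 export genes 3 fell (18.8%) and 0 rose, and among the 18 envelope genes 9 fell and 3 rose. At a mean of at least 500 counts, 3 of 11 export genes fell and 0 rose. At the same depth 8 of 14 envelope genes fell and 1 rose, and the background for both lists is the 32.2% of all genes. With few genes in each list, these counts do not set 1 list apart from the other. xpo-2, the counterpart of the exportin that returns importin alpha to the cytoplasm, had 2904 and 2270 counts in the mutant and 4675 and 4034 counts in N2, or a mean of 104.3 ± 3.58 CPM in the mutant and 143.4 ± 1.92 CPM in N2 (SD, n = 2 each). It fell by 0.46 ± 0.042 (edgeR adjusted p = 2.45e-15), with no overlap between the strains. xpo-1, the exportin for leucine-rich export signals, had 234 and 221 CPM in the mutant and 273 and 276 CPM in N2 (log2 fold change -0.27 ± 0.037, edgeR adjusted p = 5.44e-09). mel-28, the counterpart of ELYS, which starts pore assembly on chromatin, had 1358 and 1156 counts in the mutant and 2209 and 1757 counts in N2, or a mean of 50.9 ± 1.32 CPM in the mutant and 65.1 ± 2.88 CPM in N2 (SD, n = 2 each), with both mutant libraries below both N2 libraries (log2 fold change -0.36 ± 0.051, edgeR adjusted p = 2.16e-08). The 3 that rose, named after their values were seen, were the KASH protein gene unc-83 (0.39), the LEM-domain gene lem-3 (0.33) and the lipin gene lpin-1 (0.24). Without mutant replicate 1, unc-83 and lem-3 missed the threshold (edgeR adjusted p = 0.0722 and 0.117). When 1 library was left out, the median of the 34 ran from -0.13 to -0.09. In each of these fits fewer of the 34, and fewer of all genes, were called lower.

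Markers of the gametes moved in the same libraries. As background, 16.6% of all genes tested fell and 17.4% rose, and 32.2% and 19.2% of genes with a mean of at least 500 counts. Of 13 oocyte and eggshell genes, 12 fell and 0 rose, at a median log2 fold change of -1.05. They held 0.397% and 0.390% of the counts in the mutant and 0.652% and 0.675% in N2. Of 12 sperm genes tested, 12 rose, with a median of 0.59, and the 13 listed held 0.116% and 0.120% of the counts in the mutant and 0.0802% and 0.0818% in N2. Of 11 germline genes tested, 3 fell, 1 rose and 7 missed the threshold, with a median of -0.09. Each of the 11 averaged at least 500 counts, and the 27.3% that fell lay below the background share at that count. The 12 listed held 0.204% and 0.203% of the counts in the mutant and 0.227% and 0.231% in N2. Most of that difference lay in the yolk receptor gene rme-2, which the oocyte list also holds: without it the share was 0.184% and 0.183% in the mutant and 0.188% and 0.189% in N2, and 2 of 10 fell. Of 73 somatic genes, 35 rose and 5 fell, with a median of 0.19. These genes held 9.93% and 10.1% of the counts in the mutant and 8.06% and 8.56% in N2. The part that the make-up of the worms has in the change of the nuclear pore and transport genes was not tested.

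The scale on which the libraries are compared sets the zero of every fold change. When libraries were centred on the somatic genes, the median of all genes tested moved to -0.18, and the calls over all genes became 948 higher and 4833 lower, beside 2278 and 2177 as designed and 2730 and 1598 with upper-quartile scaling. The member median moved with it, to -0.34, and 35 members were called lower. Relative to the median of all genes, the members stood at -0.16 as designed, with somatic centring and with upper-quartile scaling. Relative to the median of genes with a mean of at least 500 counts, the 35 members above that count stood at -0.10 on each of these scales. A change of scale shifts every gene by nearly the same amount. The agreement of these differences between scales was therefore fixed in advance and does not test the members.

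**Figure D5:**
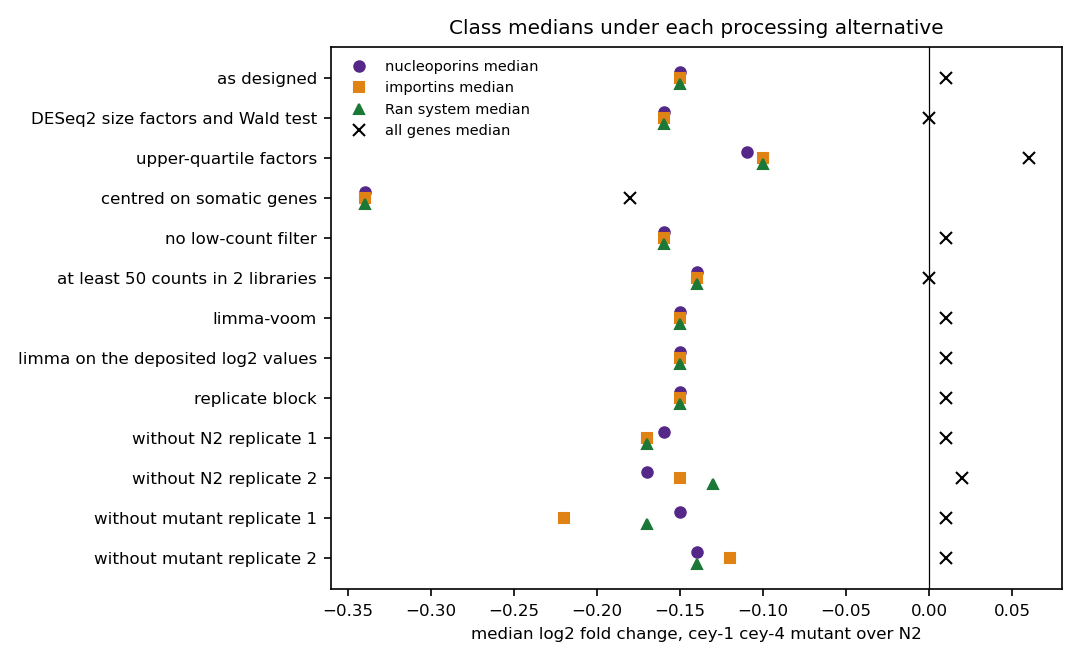
Median log2 fold change, mutant over N2, of the nucleoporins, importins and Ran system genes and of all genes tested, as designed and under each of 12 alternatives. The class medians run from -0.34 to -0.10 and lie below the median of all genes under each of them.

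According to the RefSeq table of the WBcel235 assembly, 12 of the 37 members overlap the span of a protein-coding neighbour. Since the counting rule for strand and shared reads is not given in the sources used here, counts of such pairs are uncertain. The neighbour with the most counts relative to its member was sahd-1, which averaged 294% of the counts of npp-24. Next came znf-593 at 54.6% of npp-16 and fpn-1.1 at 48.5% of npp-13. The log2 fold change was 0.16 for sahd-1 beside -0.10 for npp-24, and -0.04 for znf-593 beside -0.11 for npp-16. For fpn-1.1 it was -0.18, beside -0.16 for npp-13. The part of shared reads in the changes of these members was not tested. The other overlapping neighbours found in the count table had at most 6.16% of the member's counts.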

How the data were processed

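The 4 libraries were footprint libraries of whole worms, 2 per strain. The authors' deposited table held raw counts per gene, and a second table by the authors held log2 values. The log2 values were recomputed within 0.0005 as log2 of counts scaled to the smallest library plus a pseudocount of 8. Bowtie is named in the submitters' processing notes. Neither its version nor the genome build, annotation and counting rule is given in the sources used here. Of 20182 features, 3 that repeat pat-10, eps-8 and pmt-1 under another identifier were left out, and 18778 matched a symbol.

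Genes kept by filterByExpr (minimum count 10) were fitted by edgeR 4.0.16 under R 4.3.3, using TMM factors and robust glmQLFit, and tested 2-sided by glmQLFTest with strain alone in the model. The Benjamini-Hochberg threshold was 0.05 over all genes. SE is the log2 fold change divided by the square root of F. The procedure was tested on simulated counts. CPM are unadjusted for TMM factors, which lay between 0.997 and 1.0044. A total of 3 counts, the most a count of 0 allows, was 0.0911 to 0.1345 CPM, which covers counting error only. Alternatives used DESeq2 1.42.0 and limma 3.58.1.

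The members, roles and lists were chosen with earlier results of these data known. Values per library are given for every tested ima, imb and ran gene, and in each nucleoporin role for the genes with the highest mean CPM, the lowest p and the largest change. The 3 other transport genes with the lowest p and the mutated genes were also named. Lists are described by counts and medians.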

Additional observations from a re-analysis of the deposited data

How the results depend on the processing

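A negative median was found for nucleoporins, importins and Ran genes under the 12 alternatives to the edgeR fit. With upper-quartile scaling the medians were -0.11 (members), -0.11 (nucleoporins), -0.10 (Ran genes) and -0.07 (other transport and envelope genes), 2 members rose, the Ran genes ran-2 and ran-3, and 6 other transport genes fell. Centred on somatic genes, the medians were -0.34 for members and each class and -0.31 for the other transport genes, of which 26 fell and 0 rose, and all genes gave 948 higher and 4833 lower. DESeq2 called 1004 genes higher and 1141 lower, and 1 higher and 7 lower of the other transport genes. limma on the deposited log2 values called 1 member (1 importin, 0 nucleoporins, 0 Ran genes), 0 higher and 3 lower of the other transport genes, and 1049 higher and 600 lower of all genes. The test against a fold of 1.2, added after seeing the data, called 1 member lower (1 importin, 0 nucleoporins, 0 Ran genes), 0 higher and 2 lower of the other transport genes, and 809 higher and 450 lower of all genes. The cause of these differences was not tested.

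Leaving out 1 library gave 15 to 23 members lower and 0 to 1 higher, 12 to 17 nucleoporins lower, 2 to 4 importins lower, 1 to 3 Ran genes lower and 0 to 1 higher, and nucleoporin medians of -0.17 to -0.14. For the other transport genes it gave 7 to 10 lower, 1 to 3 higher and medians of -0.13 to -0.09. Of the 24 members that fell, 11 fell in all 4 such fits. Signs turned in npp-20 (0.01 with upper-quartile scaling, -0.12 to 0.05 over the fits without 1 library), npp-19 (-0.20 to 0.00 over these fits), imb-2 (-0.02 to 0.04 over the fits without 1 library, -0.18 centred on somatic genes), ran-2 (-0.11) and ran-3 (-0.13), the last 2 centred on somatic genes. In each fit without 1 library, fewer of all genes were called lower than in the fit as designed. The loss of calls was therefore not particular to the members, and these counts alone do not set them apart. A fit that leaves a strain with 1 library assumes that it varies like the other strain.

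The labels give both strains replicates 1 and 2 but do not say that a number marks a shared culture or day. Deviations of same-numbered libraries correlated at 0.267 over 8636 genes with a mean of at least 100 counts. With the replicate block, 24 members fell and 0 rose, and over all genes 2351 fell and 2431 rose; the call of no member changed.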
